A study of Mus musculus with 6 samples.

Results

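The genes described here are the mouse counterparts of 7 human genes, other than huntingtin, in which a lengthened CAG repeat makes a protein with an expanded glutamine tract and causes a neurological disease. They are Atxn1, Atxn2, Atxn3 and Atxn7, which encode ataxins, Cacna1a, which encodes a calcium channel subunit, Tbp, which encodes the TATA-binding protein, and Atn1, which encodes atrophin-1. Membership follows the human disease and uses no measured value, although the set was proposed with earlier results of these data known, and all 7 were found among the 22180 genes with a value. The androgen receptor, a further gene of this disease class, was not analysed here. Each member was read by 1 probe set, a group of array probes summarised to a single value, that the platform annotation assigns to that gene alone.

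Cells of C2C12, a mouse myoblast line from skeletal muscle that can fuse into myotubes, received pooled siRNAs, short RNAs that direct the decay of matching transcripts, aimed at the huntingtin gene Htt, or a scramble siRNA library as the negative control. There were 3 Affymetrix arrays per group, numbered 1 to 3 in each. The labels call the treated group a knockout, but the treatment protocol is siRNA transfection, and they name no change to any of the 7 members. A single cell line was used, the time of harvest is not given in the sources used here, and nothing says whether the replicates were separate cultures, so p-values measure only the spread between these arrays, which may be technical.

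In the polyglutamine diseases a repeat of the codon CAG lengthens, and the longer glutamine tract makes the host protein prone to misfold and aggregate, with damage to particular neurons. The host proteins are otherwise unlike one another and do different work, from transcription and RNA handling to ubiquitin removal and calcium entry. Most of them are made in many tissues, muscle included, while the channel encoded by Cacna1a is best known at nerve terminals and in Purkinje cells of the cerebellum.

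Values are the authors' log2 expression values after RMA, a procedure of background correction, quantile normalization and probe summary, so a difference of 1 is a 2-fold difference. Weak signals are compressed in such values. A level of 1 gene is not set against that of another single gene, because probes differ in brightness. The median of all gene means served as a rough mark of weak signal. Differences are Htt siRNA minus scramble, tested with limma over all genes with Benjamini-Hochberg adjustment, and a gene was called at an adjusted p under 0.05. The targeted gene came first. Htt stood at 4.49, 4.47 and 4.65 in Htt siRNA arrays 1 to 3 and at 5.59, 5.60 and 5.72 in the scramble arrays. Its log2 fold change was -1.10 ± 0.09 (SE, n = 3 per group), and its limma adjusted p of 0.0559 was just above the threshold.

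The arrays also stood apart across the groups in a list of endoplasmic reticulum and integrated stress genes, whose mean relative to the 6 arrays was 0.82 and 0.83 in Htt siRNA arrays 1 and 3 and 0.78 in scramble array 1, against -0.95 and -0.48 in scramble arrays 2 and 3 and a still lower value in Htt siRNA array 2. With this level as a covariate, the signs of the 7 members described next were the same and limma called 0 of them.

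None of the 7 members passed the test of a difference between the groups. At the adjusted threshold limma called 0 of them, against 0% of all genes, and their adjusted p-values ran from 0.483 (Atxn1) to 0.917 (Atxn2). At an unadjusted p under 0.05, which 10.9% of all genes reached, limma again counted 0 of the 7. The log2 fold change was positive for 2 members, Atxn1 and Cacna1a, and negative for 5, with a median of -0.07 beside a median of 0.03 over all genes. The size of the difference, taken without its sign, had a median of 0.13 among members and 0.10 among all genes, and the spread left within groups was alike too, with a median SD of 0.131 for members and 0.135 for all genes. The largest difference among members, 0.23 for Atxn1, was larger than that of 81.5% of genes, and the smallest, for Atxn2, was larger than that of 21.4%.

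**Figure D1:**
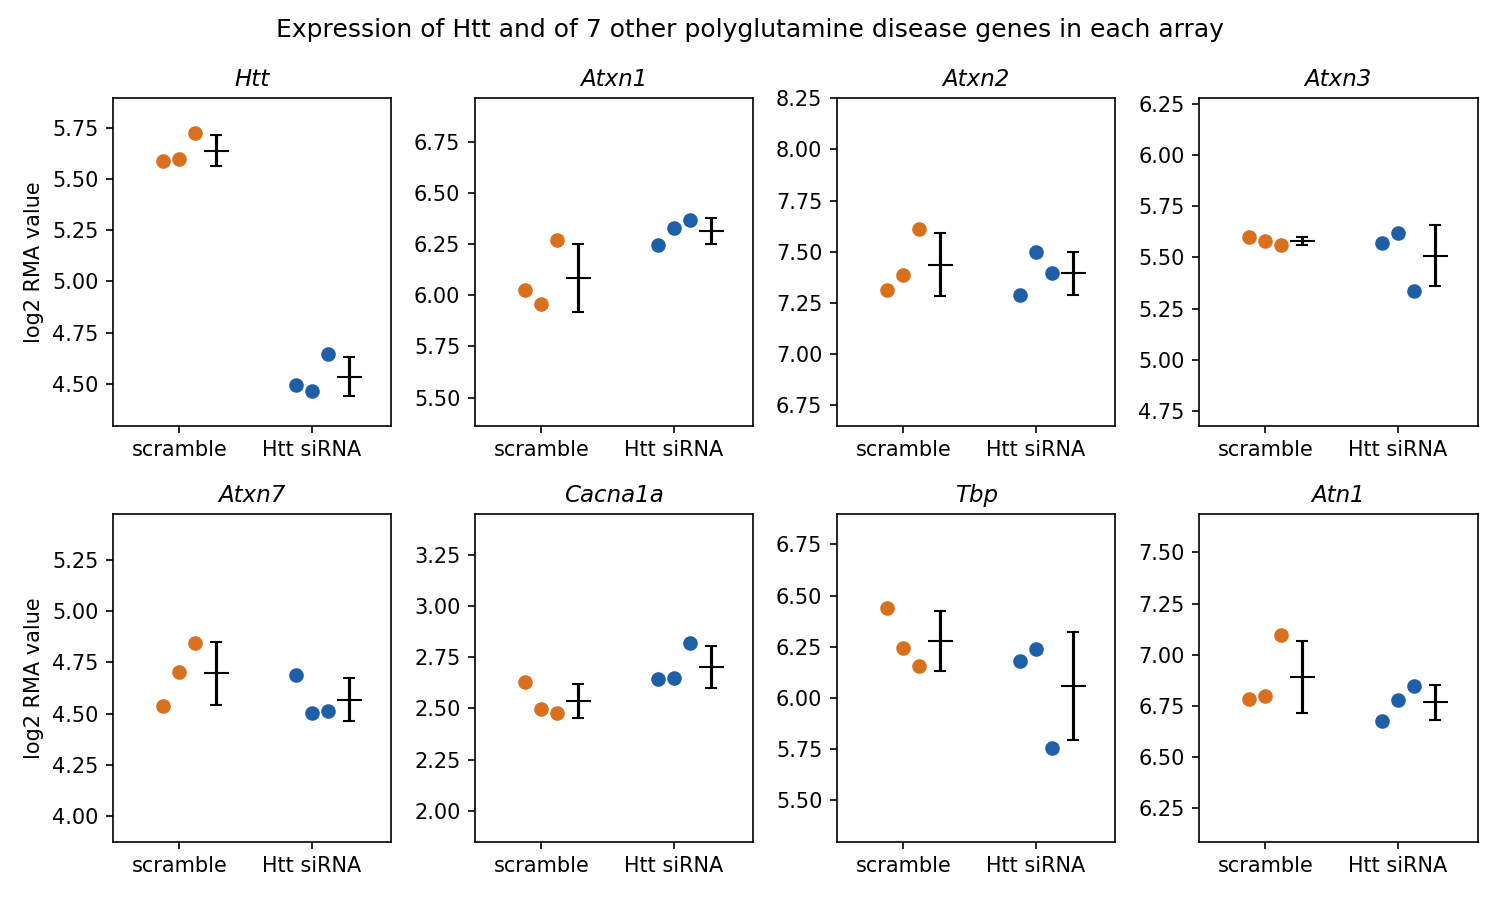
Log2 RMA value (y axis) of Htt and the 7 members in each of 3 scramble arrays (orange) and 3 Htt siRNA arrays (blue), with the mean and SD of each group in black; every panel spans the same number of log2 units. Htt falls from 5.64 to 4.54 on average, while the points of each member except Cacna1a overlap between the groups.

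The members that act in transcription in the nucleus were Atxn1, Atxn7, Atn1 and Tbp. Ataxin-1 binds the repressor capicua and holds down its target genes. Atxn1 stood at 6.25, 6.33 and 6.37 in the Htt siRNA arrays and at 6.03, 5.96 and 6.27 in the scramble arrays. Scramble replicate 3 lay inside the range of the Htt siRNA arrays, while scramble replicates 1 and 2 lay below all of them, so the groups overlapped through 1 array. Means were 6.31 ± 0.06 and 6.08 ± 0.16 (SD, n = 3), a log2 fold change of 0.23 ± 0.11 (SE), or 117% of the scramble level with a 95% confidence interval from 99.0 to 139%. This was the member with the smallest unadjusted p (0.0622 in limma), and 2860 genes had a smaller one; its exact two-sided permutation p was 0.2, where 3 arrays against 3 cannot go below 0.1. Without scramble replicate 3 the log2 fold change was 0.32, with an unadjusted limma p of 0.0158 and an adjusted p of 0.529.

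Tbp encodes the protein that binds the TATA box and takes part in initiation by all 3 nuclear RNA polymerases. It varied most among the members, with an SD of 0.225 over the 6 arrays. Its values were 6.18, 6.24 and 5.76 with Htt siRNA and 6.44, 6.25 and 6.15 with scramble. Htt siRNA replicate 3 was the low array, and Htt siRNA replicates 1 and 2 lay within the scramble range. The log2 fold change of -0.22 ± 0.15 (SE, n = 3) left 85.9% of the scramble level, with a 95% confidence interval from 67.9 to 109%. This interval reached lowest of the 7 members. Leaving out Htt siRNA replicate 3 gave a difference of -0.07, and leaving out replicate 2 of that group gave -0.31, so the size rested on single arrays. A further probe set listed jointly for Tbp and a second gene was not used.

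Ataxin-7 is a subunit of SAGA, a coactivator complex that acetylates and deubiquitinates histones. Atxn7 stood at 4.69, 4.50 and 4.51 with Htt siRNA and at 4.54, 4.71 and 4.84 with scramble. Scramble replicate 1 was lower than Htt siRNA replicate 1, so the groups overlapped. Atxn7 had a log2 fold change of -0.13 ± 0.11 (SE, n = 3), or 91.5% of the scramble level with a 95% confidence interval from 77.0 to 109%, and it was -0.05 without scramble replicate 3 and -0.21 without scramble replicate 1.

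Atrophin-1 is a transcriptional corepressor whose human form is expanded in dentatorubral-pallidoluysian atrophy. Atn1 stood at 6.68, 6.78 and 6.85 with Htt siRNA and at 6.78, 6.80 and 7.10 with scramble. Scramble replicate 3 was the high array and the other 5 lay between 6.68 and 6.85. The log2 fold change of -0.13 ± 0.11 (SE, n = 3; 91.7%, 95% confidence interval 76.7 to 110%) became -0.02 without scramble replicate 3. For Atn1, too, a probe set listed jointly with a second gene was not used.

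The members that handle RNA and ubiquitin differed least. Ataxin-2 binds poly(A)-binding protein and enters stress granules. Atxn2 stood at 7.29, 7.50 and 7.40 with Htt siRNA and at 7.31, 7.39 and 7.61 with scramble, and the arrays of the groups were interleaved. Its log2 fold change was -0.04 ± 0.11 (SE, n = 3), or 97.2% of the scramble level with a 95% confidence interval from 81.7 to 116%. The sign turned when either Htt siRNA replicate 1 (0.012) or scramble replicate 3 (0.046) was left out.

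Ataxin-3 is a deubiquitinating enzyme, and its human form is expanded in Machado-Joseph disease. Atxn3 stood at 5.57, 5.62 and 5.34 with Htt siRNA and at 5.60, 5.58 and 5.56 with scramble. The scramble arrays lay close together (SD 0.020), and Htt siRNA replicate 3 alone stood below them while Htt siRNA replicate 2 stood above. Its difference was -0.07 ± 0.10 (log2, SE, n = 3; 95.2%, 95% confidence interval 81.3 to 112%), and 0.015 without Htt siRNA replicate 3. That array was the lowest for Atxn3 and for Tbp and the highest for Atxn1 and Cacna1a.

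Cacna1a encodes the pore-forming subunit of the P/Q-type calcium channel. It stood at 2.64, 2.65 and 2.82 with Htt siRNA and at 2.63, 2.50 and 2.48 with scramble, means of 2.70 ± 0.10 and 2.53 ± 0.08 (SD, n = 3). Its 6-array mean of 2.62 was below the median of all gene means, 2.95, which was not so for the other 6 members, and the table holds no detection calls. Cacna1a had a log2 fold change of 0.17 ± 0.09 (SE; adjusted p = 0.553 in limma), or 112% of the scramble level with a 95% confidence interval from 96.8 to 130%. Cacna1a was the 1 member of 7 whose groups did not overlap, which was the case for 16% of all genes in either direction, 10.1% higher with Htt siRNA and 5.91% lower. Its lowest Htt siRNA array (2.64) and highest scramble array (2.63) were nearly level. The absence of overlap depended on the scaling. After centring each array on its median it held for Atn1 in place of Cacna1a, and after repeated quantile normalization for Atxn1, so it marked 1 member under each scaling and a different one each time.

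**Figure D2:**
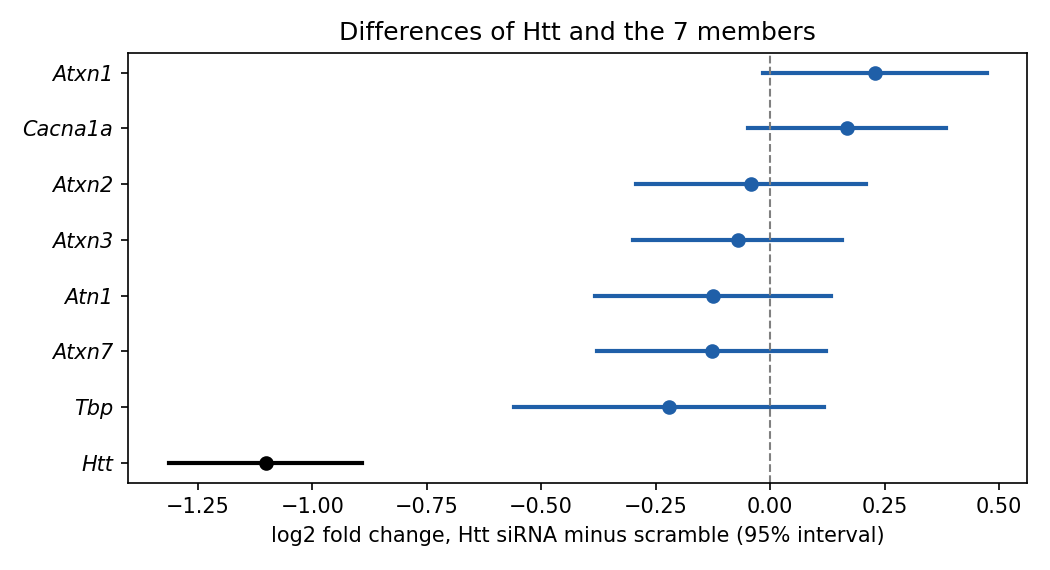
Log2 fold change (x axis, Htt siRNA minus scramble) with its 95% confidence interval from limma for Htt (black) and the 7 members (blue), ordered by fold change; the dashed line marks no difference. The intervals of all 7 members include 0, and none reaches the interval of Htt, which spans -1.31 to -0.89.

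The intervals of the members can be read beside that of the targeted gene. Htt was at 46.6% of scramble with a 95% confidence interval from 40.2 to 53.9%, while the lowest bound among the members was 67.9% (Tbp) and the highest upper bound 139% (Atxn1). For Cacna1a this comparison says little. Its mean of 2.62 was below the median of all gene means, 2.95, and a loss in a weak signal would be compressed.

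**Figure D3:**
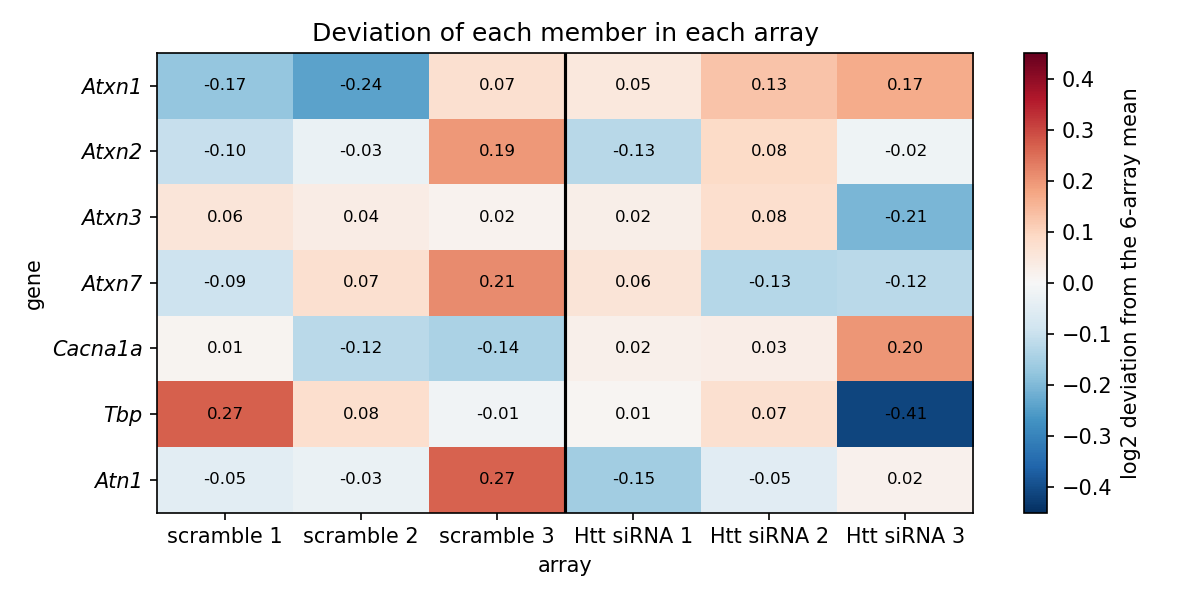
Log2 deviation of each member (rows) from its own mean over the 6 arrays, for 3 scramble and 3 Htt siRNA arrays (columns); red is above the mean and blue below. The strongest cell is Tbp in Htt siRNA replicate 3 at -0.41, and scramble replicate 3 is the highest array for Atxn2, Atxn7 and Atn1.

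The members did not share one pattern over the arrays. Scramble replicate 3 held the highest value of Atxn2 (0.19 above its mean), Atxn7 (0.21) and Atn1 (0.27), yet the lowest of Cacna1a (-0.14), all log2. Scramble replicate 1 held the highest value of Tbp (0.27) and scramble replicate 2 the lowest of Atxn1 (-0.24). For the 3 members with the largest SD over the arrays, the genes that tracked them most closely were found by the root mean square difference between deviations over the 6 arrays, among genes above the median level. Around Tbp these were Nfkbiz (0.028), Dzip3 (0.032) and Csnk1g3 (0.035), around Atxn1 Medag (0.031), Wasf2 (0.037) and Ntsr2 (0.041), and around Atn1 Atp5pb (0.028), Prdx4 (0.030) and Psmd6 (0.037), in log2 units. With 6 arrays and so many candidates, such likeness is a description only.

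Genes that work with the members were read from 9 lists, which hold 124 measured genes. Limma called 0 of the 124 after adjustment, and 13 had an unadjusted p under 0.05, or 10.5%, close to the 10.9% over all genes. Of the 13, 11 were lower and 2 higher with Htt siRNA, where over all genes 5.14% were lower and 5.72% higher. The groups did not overlap for 19 of the 124, or 15.3%, beside 16% over all genes. Over all alternatives the number lower ran from 5 (without scramble replicate 3) to 16 (centred arrays), with 6 and 7 when Htt siRNA replicate 1 or 3 was left out and 15 when replicate 2 of that group was. The number higher ran from 1 to 4. Of 25 genes of these lists named by rule below, all 25 kept their sign under every alternative run, and 14 moved by over 1.5 times under at least 1. The median log2 fold change of the 124 was -0.06, and -0.12 with arrays centred on their medians. Centring lowered the fold change of every gene by the same amount. Gene medians were 2.97, 2.98 and 3.01 in Htt siRNA arrays 1 to 3 and 2.93, 2.90 and 2.94 in the scramble arrays. After centring, 4.64% of all genes were higher without overlap and 11.3% lower, in place of 10.1% and 5.91%.

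Among relatives of the members, 13 were measured and 9 had positive fold changes, with a median of 0.04. Atxn7l3b, a small protein gene related to Atxn7l3, stood at 8.12, 8.04 and 8.08 with Htt siRNA and 7.76, 7.64 and 7.92 with scramble (0.31 ± 0.10, SE; unadjusted p = 0.0137 in limma). Atxn7l3, which encodes an adaptor of the SAGA deubiquitinase, stood at 4.77, 4.68 and 4.76 against 4.85, 5.04 and 5.05 (-0.24 ± 0.09; unadjusted p = 0.031 in limma). These were the 2 of 13 relatives whose groups did not overlap, a share near the 16% over all genes, and they lay in opposite directions with neither past the adjusted threshold (adjusted p = 0.384 and 0.425 in limma). The closest relatives of the ataxin-1, ataxin-2 and atrophin-1 genes, named after their values were seen, were Atxn1l (0.01 ± 0.10), Atxn2l (0.08 ± 0.21) and Rere (-0.04 ± 0.18). Josd2, a deubiquitinase of the ataxin-3 family, had a value of 0.29 ± 0.17.

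Of 9 genes of the ataxin-1 and capicua repressor, 0 had an unadjusted p under 0.05 in limma; Pum2, of the family of RNA-binding repressors that act on Atxn1 transcripts, had a value of -0.16 ± 0.10, Usp7 -0.15 ± 0.13 and Hdac3 -0.10 ± 0.10. Without Htt siRNA replicate 2 Pum2 was at -0.25; Usp7 ran from -0.22 to -0.01 and Hdac3 from -0.20 to -0.05 over the alternatives. Of 11 genes known as capicua targets, which are also growth factor response genes, 4 were lower at an unadjusted p under 0.05 and 0 higher. Over all genes 5.14% were lower by that threshold. The median of the 11 was -0.29. The transcription factor gene Etv1 stood at 4.20, 4.91 and 4.37 with Htt siRNA and 4.96, 5.45 and 5.21 with scramble (-0.71 ± 0.20, SE). The phosphatase gene Dusp4 had a value of -0.60 ± 0.17, the cyclin gene Ccnd1 -0.91 ± 0.34, and Etv4, the last of the 4 and named for that reason after its value was seen, -0.71 ± 0.28. In each of Etv1, Dusp4 and Ccnd1, Htt siRNA replicate 2 was the treated array nearest to the scramble arrays. Scramble replicate 1 was the lowest scramble array for each. Etv1 and Dusp4 were still higher in scramble replicate 1 than in Htt siRNA replicate 2. Within each group, these genes were thus lower in the arrays with a high stress gene level. With that level as a covariate, 6 of the 11 were lower at an unadjusted p under 0.05 and the median was again -0.29. Without Htt siRNA replicate 2, 3 of the 11 genes passed the adjusted threshold, where 540 of all 22180 genes passed in place of 0. The count of 4 was 2 on leaving out replicate 1 of the Htt siRNA arrays or replicate 2 or 3 of the scramble arrays.

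**Figure D4:**
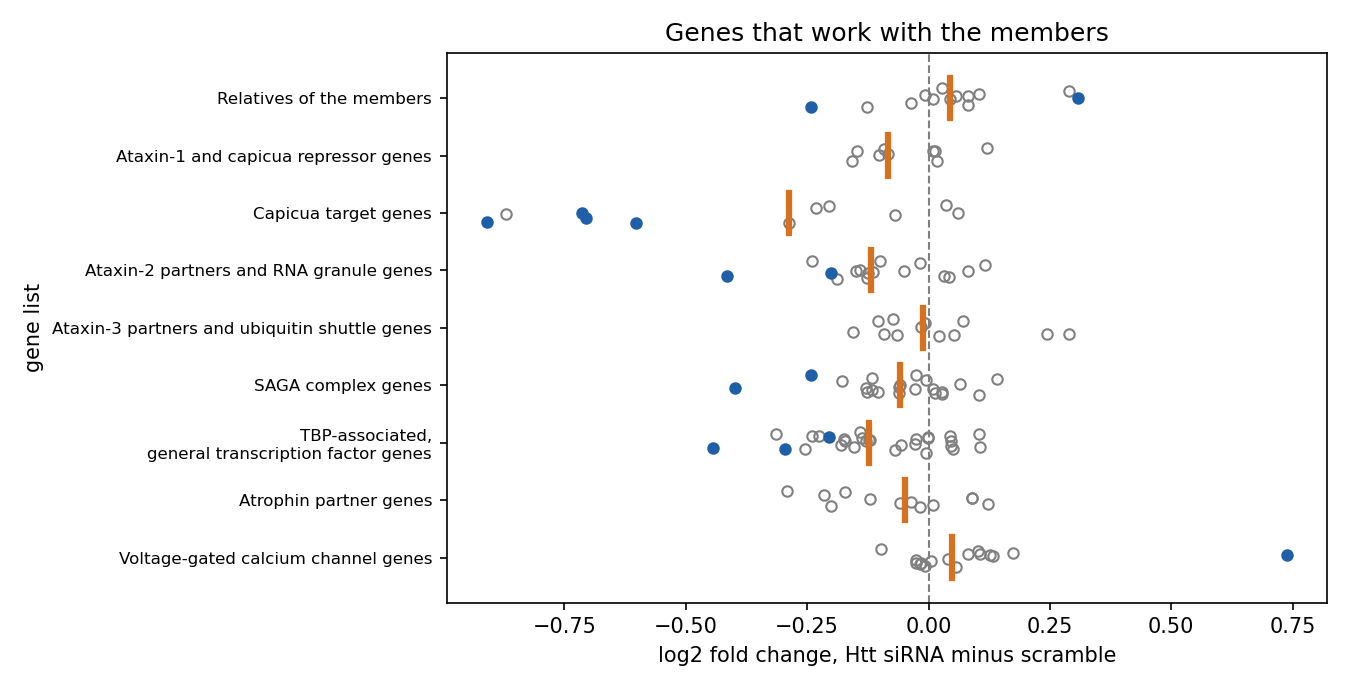
Log2 fold change (x axis, Htt siRNA minus scramble) of each measured gene in 9 lists of genes that work with the members (rows); filled blue points have an unadjusted limma p under 0.05, open grey points do not, and orange bars are list medians. The capicua targets have the lowest median, -0.29, and the highest single point is Cacnb1 at 0.74.

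General transcription factors that associate with TBP mostly had negative fold changes. Of 29 measured, 23 had a fold change below 0. The list median was -0.12, beside 0.03 over all genes. At an unadjusted p under 0.05 in limma, 3 were lower, beside 5.14% of all genes, and 0 higher. For 6 of the 29 the groups did not overlap, all lower, where 5.91% of all genes were lower without overlap. Taf5, a scaffold subunit of TFIID, stood at 4.63, 4.94 and 4.57 with Htt siRNA and 5.14, 5.24 and 5.08 with scramble (-0.44 ± 0.12, SE; adjusted p = 0.327 in limma, the smallest of the 124 genes). Without Htt siRNA replicate 2 the adjusted limma p of Taf5 was 0.0375, where 540 of all genes passed the threshold in place of 0. Taf6, another TFIID subunit, had a value of -0.20 ± 0.08 and Bdp1, a factor of RNA polymerase III, -0.30 ± 0.12. The mean of the list in each array ran from 5.60 to 5.64 with Htt siRNA and from 5.69 to 5.81 with scramble. The count of 3 was 1 without Htt siRNA replicate 1 and 6 with centred arrays. It was also 1 with repeated quantile normalization, the filter on dim genes and the trended robust prior. The median was -0.19 with centred arrays, a shift that all genes shared, and -0.08 without scramble replicate 1.

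The SAGA list had a median of -0.06. At an unadjusted p under 0.05 in limma, 2 of its 21 measured genes were lower, beside 5.14% of all genes, and 0 higher. The 2 lower genes were Atxn7l3 and the core subunit gene Supt3 (-0.40 ± 0.16, SE). The acetyltransferase gene Kat2a had a value of -0.12 ± 0.08.

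Of 16 ataxin-2 partners and RNA granule genes, 12 had negative fold changes (median -0.12). At an unadjusted p under 0.05 in limma, 2 were lower, beside 5.14% of all genes, and 0 higher. G3bp2, a stress granule nucleator, stood at 7.42, 7.70 and 7.35 with Htt siRNA and 7.71, 8.04 and 7.97 with scramble (-0.42 ± 0.13, SE). Pabpc1, the cytoplasmic poly(A)-binding protein gene, stood at 5.75, 5.64 and 5.60 against 5.86, 5.84 and 5.89 (-0.20 ± 0.08). G3bp1 had a value of -0.19 ± 0.09. The groups did not overlap for these 3 genes and Usp10, 4 of 16, where 5.91% of all genes were lower without overlap, and the mean of the list in each array ran from 6.89 to 6.96 with Htt siRNA and 7.01 to 7.02 with scramble. The median was -0.18 with centred arrays, a shift that all genes shared, and -0.05 without Htt siRNA replicate 3. The count of 2 was 1 on leaving out Htt siRNA replicate 3 or replicate 2 or 3 of the scramble arrays. It was also 1 with repeated quantile normalization, the filter on dim genes, the trended robust prior, the replicate block and the stress covariate. With centred arrays it was 3.

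Among 12 ataxin-3 partners and ubiquitin shuttle genes, 0 had an unadjusted p under 0.05 in limma and the median was -0.01. Becn1, the autophagy protein beclin 1 that ataxin-3 deubiquitinates, had a value of 0.24 ± 0.12, and Vcp, the segregase that ataxin-3 binds, -0.16 ± 0.09. Among 12 atrophin partners, 0 had an unadjusted p under 0.05 and the median was -0.05; the ubiquitin ligase gene Wwp2 had a value of -0.29 ± 0.16, Baiap2 -0.22 ± 0.14 and the histone deacetylase gene Hdac1 -0.20 ± 0.14.

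Of 16 voltage-gated calcium channel genes besides Cacna1a, 4 had a mean above the median of all genes. Only Cacnb1, the auxiliary beta subunit of skeletal muscle, had an unadjusted p under 0.05. It stood at 5.85, 4.93 and 5.78 with Htt siRNA and 4.93, 4.67 and 4.75 with scramble (0.74 ± 0.23, SE; unadjusted p = 0.0134 in limma). Htt siRNA replicates 1 and 3 were high, while Htt siRNA replicate 2 was level with scramble replicate 1. Without Htt siRNA replicate 2, Cacnb1 was 1 of 540 genes that passed the adjusted threshold, in place of 0. The skeletal muscle pore subunit gene Cacna1s had a value of 0.13 ± 0.08, Cacna1g 0.13 ± 0.10, and the other neuronal channel genes of the Cacna1a subfamily, Cacna1b and Cacna1e, named after their values were seen, 0.08 ± 0.11 and 0.06 ± 0.15. Cacna1s, Cacna1g and Cacna1e had 6-array means of 2.70, 2.24 and 2.30, below the median of all gene means, where differences are compressed.

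Markers of cell state were read beside these values, and limma called 0 of them after adjustment. All 7 markers of differentiated myotubes had positive fold changes with an unadjusted p under 0.05, where 5.72% of all genes were higher. The mean of this list in each array ran from 4.75 to 5.90 with Htt siRNA and from 3.40 to 4.14 with scramble. Cacnb1 also had a positive fold change, and Htt siRNA replicate 2 was the lowest treated array for both. All 5 myoblast markers were above the median level, from 8.23 to 8.53 against 7.74 to 8.16 as list means, and all 5 had positive fold changes. Of the 5, 2 were higher at an unadjusted p under 0.05 in limma, beside 5.72% of all genes. For 4 of the 5 the groups did not overlap, all higher, where 10.1% of all genes were higher without overlap. The mean of 7 neuronal markers ran from 5.85 to 6.26 against 6.12 to 6.19, with Snap25 below the median level. These markers did not move together: 5 of the 7 had positive fold changes, among them Map2 (0.31 ± 0.13), while Nefl was at -1.54 ± 0.45. For both Map2 and Nefl the groups did not overlap. The mean of 3 measured Purkinje cell markers ran from 2.81 to 3.01 against 3.09 to 3.58, which rested on Car8 (-1.34 ± 0.32), while Calb1 was at 0.22 ± 0.09 and Pvalb at 0.0037 ± 0.14. Calb1 and Pvalb had 6-array means of 1.82 and 2.50, below the median level. Of the endothelial markers, 0 of 4 exceeded the median level. The part of cell state in the values of the members was not tested, and in such bulk RNA fewer cells of a type and less RNA per cell cannot be told apart.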

How the data were processed

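The authors deposited log2 expression values for 41345 probe sets on 6 arrays; per the submitters' processing notes these were made with RMA and the affy package. Genome build and versions: not given in the sources used here. Values ran from 0.84 to 12.12, the array medians from 2.59 to 2.67, and the number of arrays limits the precision. The platform annotation gave 1 symbol for 23521 probe sets, several for 1814 and none for 16010. The brightest probe set with 1 symbol stood for each gene; all 7 members matched a RefSeq gene table (GRCm38.p6) by identifier. Limma 3.58.1 in R 4.3.3 fitted the group as the only term, with Benjamini-Hochberg adjustment over 22180 genes, and the code was tested on simulated data. Tables used Python 3.11.15 and pandas 2.3.3.

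The members and lists were chosen with earlier results of these data known. Named genes are the members, Htt, the 3 genes of each list with the smallest limma p, and the 3 genes most like each of the 3 most variable members; Etv4, Atxn1l, Atxn2l, Rere, Cacna1b, Cacna1e, Usp10 and the markers named singly fall outside this rule and were chosen after their values were seen. The lists had 175 entries, of which 156 were measured, some in several lists. One list, of endoplasmic reticulum and integrated stress genes, served as a covariate only: 0 of its 17 genes had an unadjusted p under 0.05 in limma, and its smallest values of p belonged to Sel1l (0.70 ± 0.44), Hyou1 (0.85 ± 0.58) and Creld2 (0.73 ± 0.55). Of 4 macrophage markers, 1 was lower at that level. Alternatives were repeated quantile normalization, median centring, a filter on dim genes, the mean of probe sets, array weights, a trended robust prior, the replicate number as a block, the stress covariate and leaving out each array.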

Additional observations from a re-analysis of the deposited data

How the results depend on the processing

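Limma called 0 of 7 members after adjustment under all 14 alternatives, 13 for Cacna1a, which the filter on dim genes removed. The count of members with an unadjusted p under 0.05 went from 0 to 1, Atxn1, with repeated quantile normalization and without scramble replicate 3. The log2 fold change reversed for Atxn2 when Htt siRNA replicate 1 (0.012) or scramble replicate 3 (0.046) was left out, and for Atxn3 without Htt siRNA replicate 3 (0.015). The signs of the other 5 members held under all alternatives run. Leaving out 1 array gave 0.17 to 0.32 for Atxn1, -0.10 to 0.046 for Atxn2, -0.13 to 0.015 for Atxn3, -0.21 to -0.05 for Atxn7, 0.11 to 0.22 for Cacna1a, -0.31 to -0.07 for Tbp and -0.18 to -0.02 for Atn1. Htt passed the adjusted threshold with repeated quantile normalization (-1.04), centred arrays (-1.16), the dim filter, the robust prior and the replicate block (-1.10 each), array weights and the stress covariate (-1.11 each) and without Htt siRNA replicate 2 (-1.07); leaving out 1 array gave -1.16 to -1.06.

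The main fit did not take the replicate numbers as a pairing. Same-numbered arrays deviated together for numbers 1 and 2, with correlations of 0.35 and 0.36, and hardly for number 3 (0.01). Whether the numbers mark pairs was not tested. With the replicate block 98 genes passed the adjusted threshold in place of 0, and 540 did without Htt siRNA replicate 2, 29 with the stress covariate, 4 with the robust prior, 3 each with repeated quantile normalization, centring and the dim filter, and 1 each with array weights and without scramble replicate 1. Without scramble replicate 2 the share of genes with an unadjusted p under 0.05 was 6.93% in place of 10.9%. The cause was not tested.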
